A study of Mus musculus with 6 samples.

Results

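The aldehyde dehydrogenase (Aldh), aldo-keto reductase (Akr) and alcohol dehydrogenase (Adh) genes were followed in kidney RNA of diabetic mice. Members were the protein-coding genes whose symbol starts with Aldh, Akr or Adh followed by a digit, with Aldh9a1, Aldh6a1 and Akr1b3 left out. This gave 41 genes of 55401 gene identifiers: 19 Aldh, 16 Akr and 6 Adh. The symbols alone chose them, so no measured value entered the choice. The 2 groups compared were Cdo1KKO/Sed, from mice of the genotype called Cdo1KKO, and WT/Sed, from wild-type mice, with 3 libraries each. Diabetes was induced with streptozotocin, a toxin of the pancreatic beta cells, in both groups, and RNA came from kidney tissue. Cdo1 encodes cysteine dioxygenase, and the study asks what depends on the Cdo1 of the renal tubule. The labels do not spell out Sed, name the Cre driver or give the age or sex of the mice. They call the libraries biological replicates. Genotype is the only difference between the groups that the labels give.

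Enzymes of these 3 families move hydrogen between alcohols, aldehydes, ketones and acids with NAD or NADP as the partner. ALDHs oxidise aldehydes to acids, AKRs mostly reduce aldehydes and ketones with NADPH, and ADHs interconvert alcohols and aldehydes. Kidney, above all the proximal tubule, uses them to break down amino acids, to make retinoic acid and steroid metabolites, and to clear reactive aldehydes formed from oxidised lipids or sugars.

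The stretch before the start of a gene can show how close family members are, and 1 pair stood apart in this respect. Promoter sequences from RefSeq (GRCm38.p6) were matched to 33 of the 41 members, and the 250 bases before the start were compared in 528 pairs. Akr1c12 and Akr1c13, aldo-keto reductase genes of 1 cluster that both rose, had 94.0% identical bases in this stretch, against a median of 57.6% over all pairs. The next pairs, tied at 64.4%, were Akr1c14 with Akr1c18, Akr1c12 with Akr1c19 and Akr1c13 with Akr1c19. The sequences are shown for this pair, for Akr1c21, which lies in the same gene cluster and fell, and for Aldh1a2, which rose and holds a match to the core of the antioxidant response element. In the Akr1c12 and Akr1c13 lines capitals mark bases that differ or have no partner when the 2 are aligned, in the Aldh1a2 line they mark the match, and Akr1c21 has none. Akr1c12 runs on the minus strand (chr13:4279400-4279649), and Akr1c13 (chr13:4190937-4191186), Akr1c21 (chr13:4573825-4574074) and Aldh1a2 (chr9:71215539-71215788) on the plus strand. The starts used here differ from those of the GENCODE annotation for Akr1c12 (4279433) and Akr1c13 (4191150). Both GENCODE starts lie inside the stretches shown, so the last bases of these 2 lines belong to the GENCODE genes.
Akr1c12: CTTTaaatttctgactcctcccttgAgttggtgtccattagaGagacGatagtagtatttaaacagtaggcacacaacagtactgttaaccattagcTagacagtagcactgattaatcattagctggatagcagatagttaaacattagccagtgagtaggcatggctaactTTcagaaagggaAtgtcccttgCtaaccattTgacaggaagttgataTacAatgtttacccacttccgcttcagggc
Akr1c13: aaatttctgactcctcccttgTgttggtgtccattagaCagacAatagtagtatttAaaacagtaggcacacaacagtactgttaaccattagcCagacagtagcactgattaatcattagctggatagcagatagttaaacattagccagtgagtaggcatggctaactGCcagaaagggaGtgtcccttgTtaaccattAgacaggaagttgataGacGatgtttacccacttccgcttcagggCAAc
Akr1c21: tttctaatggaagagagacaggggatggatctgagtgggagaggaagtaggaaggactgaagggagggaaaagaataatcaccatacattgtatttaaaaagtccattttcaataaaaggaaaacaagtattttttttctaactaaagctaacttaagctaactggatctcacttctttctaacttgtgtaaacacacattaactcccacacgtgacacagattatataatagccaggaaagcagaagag
Aldh1a2: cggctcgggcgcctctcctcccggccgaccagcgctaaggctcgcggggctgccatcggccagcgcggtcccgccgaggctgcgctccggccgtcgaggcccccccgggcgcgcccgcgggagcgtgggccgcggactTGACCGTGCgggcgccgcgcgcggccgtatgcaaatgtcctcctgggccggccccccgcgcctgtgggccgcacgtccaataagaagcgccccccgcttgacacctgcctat
Akr1c21 shared 56.8% of its bases with Akr1c12 and 55.6% with Akr1c13, below the median of all pairs. The core searched was TGACNNNGC on both strands, in 300 bases from 250 before to 50 after the start. It occurred in 4 of 33 members with a promoter (12.1%), Adh6a, Akr1c19, Akr1cl and Aldh1a2, in 12.4% of all 32851 promoters and in 14.0% of the 27025 genes they belong to. Among members with a promoter, 2 of 6 that rose (Akr1c19 and Aldh1a2) and 0 of 16 that fell held it. The core CAAAGTCCA, bound by the proximal tubule factor HNF4, was in 0 of 33 members and in 0.475% of all promoters. These matches are letters in a window and say nothing about binding.

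The libraries held 28145261 to 43872779 counts. CPM below are counts scaled to library size by TMM, and n = 3 libraries with SD wherever a mean is given. Each log2 fold change divides Cdo1KKO/Sed by WT/Sed and carries an approximate SE, both from edgeR's quasi-likelihood test over 17194 genes. A gene rose or fell where its Benjamini-Hochberg adjusted p in that test was under 0.05. Cdo1 had 109, 118 and 103 CPM in the Cdo1KKO/Sed libraries, against 181, 191 and 180.5 CPM in the WT/Sed libraries (log2 fold change -0.74 ± 0.06, adjusted p = 4.64e-06). In these CPM its transcript was at 59.8% of the WT/Sed level, and by an exact permutation of the CPM, 2-sided, p was 0.1, the lowest value possible with 3 libraries a group. The fall was smaller on the deposited TPM, at 181 ± 11.0 TPM in Cdo1KKO/Sed and 254 ± 5.11 TPM in WT/Sed. In the same libraries 13 of 13 proximal tubule markers fell (median log2 fold change -0.72), with a summed level of 10149 to 11062 CPM over the Cdo1KKO/Sed libraries and 17849 to 18553 CPM in WT/Sed. Of the thick ascending limb markers 4 of 5 rose and 1 fell, and 2 of 4 of the distal convoluted tubule rose. Collecting duct principal cell markers fell in 2 of 5 cases and intercalated cell markers rose in 2 of 5. Fibroblast and pericyte markers rose in 5 of 5 tested, macrophage and dendritic cell markers in 4 of 6 with 1 lower, neutrophil markers in 3 of 3 tested and adipocyte markers in 1 of 1 tested. With edgeR 0 of 5 endothelial and 0 of 3 tested urothelial markers passed the test (0 in each at an unadjusted p under 0.05, and 0 with DESeq2); limma-voom called 4 endothelial markers, Cdh5, Kdr, Pecam1 and Tek, and 0 urothelial ones. Of the podocyte markers 1 of 4 fell. Hepatocyte genes fell in 3 of 5 tested, and of the Y-linked genes with Xist 3 of 5 fell (Uty, Kdm5d and Eif2s3y). These 3 calls ended with library size alone (adjusted p = 0.272, 0.136 and 0.116) and with TPM (0.555 to 0.847), and that of the hepatocyte gene Apoa2 ended in 7 of 16 other settings. With TPM the calls for Lrp2 and Cubn (proximal tubule), Cldn16 (thick ascending limb), Csf1r (macrophage) and Wt1 (podocyte) ended too (0.0533 to 0.514). Those for Slc12a1, Atp6v0d2, C1qb, Csf1r and Wt1 each ended without at least 1 single library (0.0512 to 0.0818). Other calls were gained. With library size alone and with TPM, Wnk4 (distal convoluted tubule), Scnn1b (principal cell), Atp6v1g3 and Slc26a4 (intercalated cell) were higher (9.26e-04 to 0.0167). With DESeq2 and limma-voom C1qa (macrophage) was higher (0.0274 and 0.0244) and Serpina1a (hepatocyte) lower (0.00780 and 0.0117). All these marker counts stand beside 18.5% lower and 18.9% higher over all tested genes. At a mean of 100 CPM or more, 48.2% of tested genes fell and 17.1% rose, and below it 15.0% fell and 19.1% rose. The marker lists were not split by this level. RNA of whole tissue cannot tell fewer cells of a type from less RNA per cell.

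Most of the measured members of these families changed, and more fell than rose. Of the 36 members with enough counts to be tested, 19 fell and 8 rose. Over all tested genes 37.4% changed, with 18.5% lower and 18.9% higher, while among the members 52.8% were lower and 22.2% higher. Of the 14309 tested protein-coding genes 41.5% changed, with 20.4% lower and 21.1% higher. The share of members that rose was thus near that of protein-coding genes. The median log2 fold change was -0.31 over the tested members, against 0.01 over all tested genes. Libraries did not overlap between groups in 28 of the 36 tested members, 9 with Cdo1KKO/Sed higher and 19 with it lower, beside 50.3% of all tested genes, 25.7% with Cdo1KKO/Sed higher and 24.5% with it lower. By family, Aldh had 11 of 18 lower and 4 higher, Akr 7 of 13 lower and 4 higher, and Adh 1 of 5 lower and 0 higher. Among the Adh genes edgeR's unadjusted p for a rise was under 0.05 in 1 gene, Adh6a, and DESeq2 and limma-voom each called 1 as higher, Adh1. The proximal tubule markers moved with the members that fell, and their part in those falls was not tested.

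Abundant members fell in most cases. Of the 12 members with a mean of at least 100 CPM, 10 fell and 0 rose by edgeR (0 at an unadjusted p under 0.05, 1 with DESeq2 and with limma-voom, Adh1), where 48.2% of all tested genes at that level fell and 17.1% rose. Of the 24 tested members below it, 9 fell and 8 rose, where 15.0% of such genes fell and 19.1% rose. This level of 100 CPM was chosen after the values were seen. The split of calls depended on the scaling: 29.6% of called members were higher with TMM, and 47.8% (11 higher, 12 lower) with library size alone, where 32.1% of all tested genes were higher and 9.80% lower. With TPM (plus 1, limma) 12 members were higher and 12 lower, where 39.5% of all tested genes were higher and 7.25% lower. The log2 fold change of the median gene was 0.01 with TMM, 0.18 with library size alone and 0.19 with TPM, and members are described relative to that gene.

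**Figure D1:**
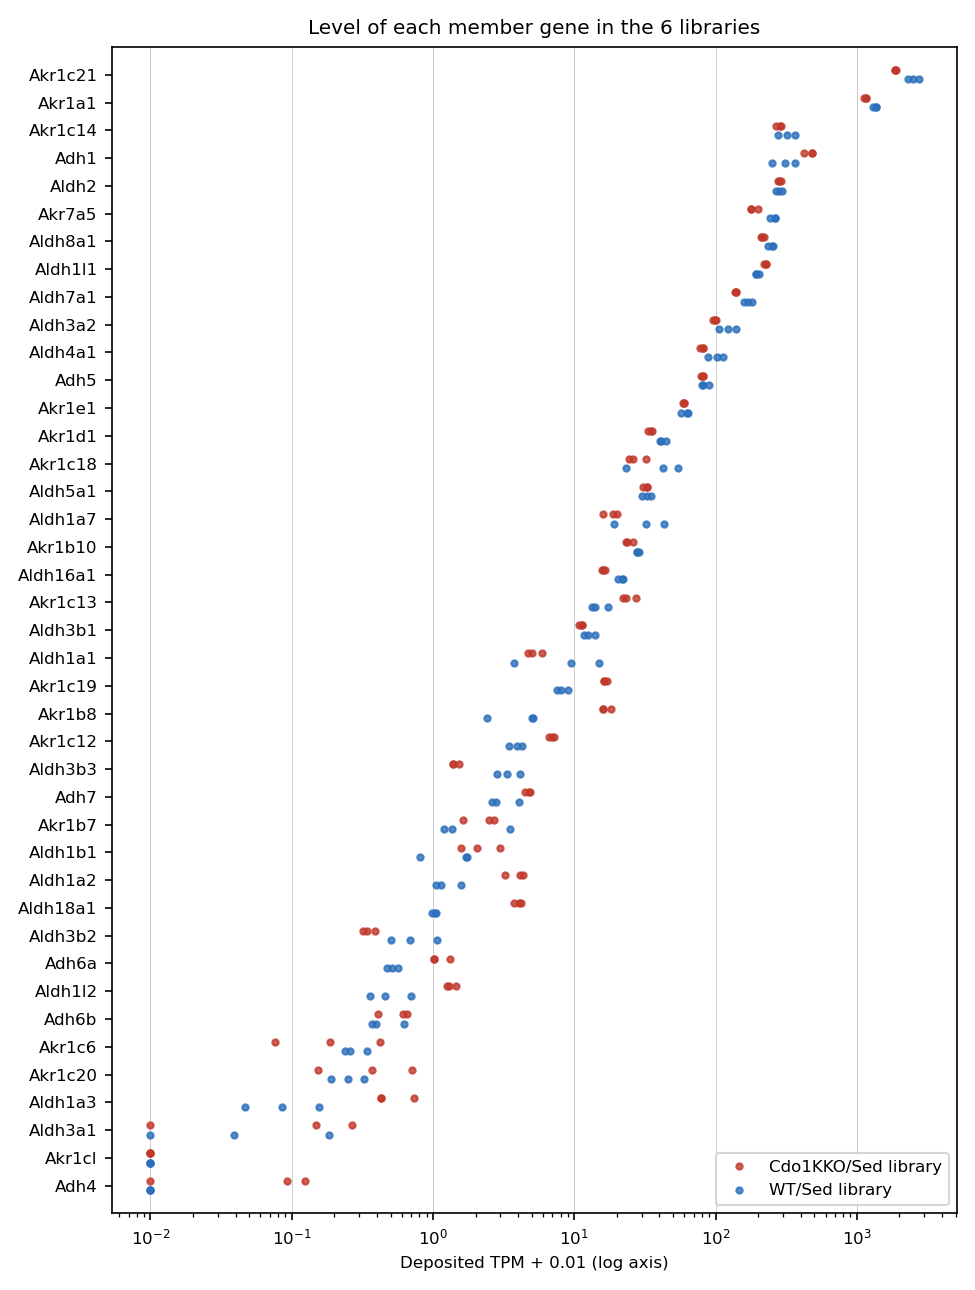
Level of each of the 41 members in TPM plus 0.01 on a log axis, 1 point per library, Cdo1KKO/Sed above WT/Sed in each row. The members span from 0 TPM (Akr1cl) to the values of Akr1a1 and Akr1c21 above all others, and the Cdo1KKO/Sed points lie closer together than the WT/Sed points for most genes.

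**Figure D2:**
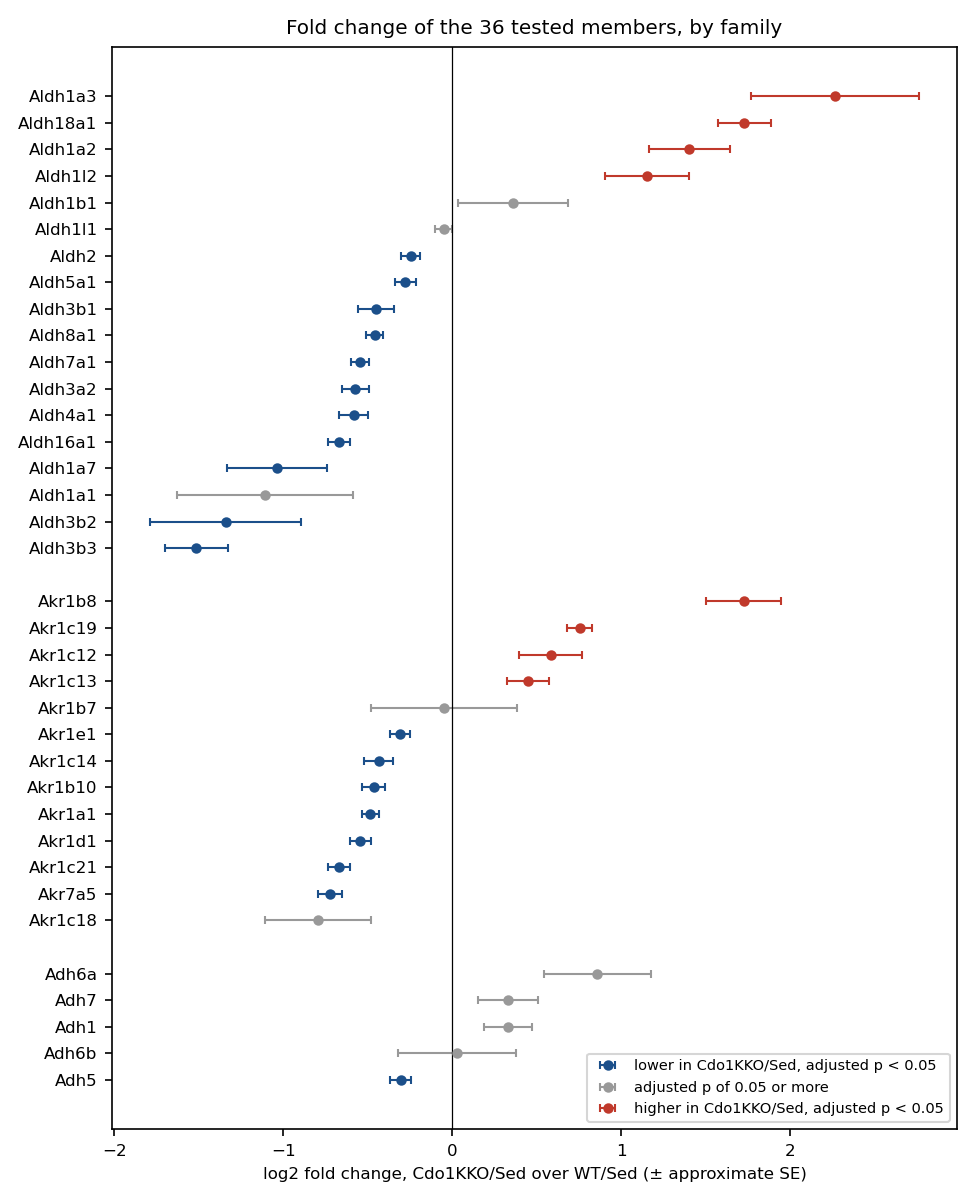
Log2 fold change of the 36 tested members, Cdo1KKO/Sed over WT/Sed, with bars of ± 1 approximate SE, by family. The 8 members that rose run from 0.45 (Akr1c13) to 2.27 (Aldh1a3) and the 19 that fell from -1.51 (Aldh3b3) to -0.25 (Aldh2).

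Levels between genes were compared on the deposited TPM, which accounts for gene length. The most abundant members were Akr1c21, a steroid 17-alpha dehydrogenase typical of mouse kidney, at 1882 ± 17.7 TPM in Cdo1KKO/Sed and 2512 ± 210.0 TPM in WT/Sed, and Akr1a1, which reduces glucuronate on the way to ascorbate, at 1145 ± 25.3 TPM in Cdo1KKO/Sed and 1346 ± 39.7 TPM in WT/Sed. They ranked 1 and 2 in both groups. The next in Cdo1KKO/Sed was Adh1 at 464 ± 32.9 TPM in Cdo1KKO/Sed and 309 ± 56.7 TPM in WT/Sed, which ranked 4 in WT/Sed behind Akr1c14, at 281 ± 10.4 TPM in Cdo1KKO/Sed and 319.8 ± 44.8 TPM in WT/Sed. In WT/Sed, Adh1 and Akr1c14 differed by less than the spread of their libraries. The summed level of all members was 5439, 5454 and 5289 TPM in Cdo1KKO/Sed, against 6263, 6507 and 6040 TPM in WT/Sed. Aldh (1137 ± 12.1 TPM in Cdo1KKO/Sed, 1234 ± 27.7 TPM in WT/Sed) and Akr (3706 ± 48.6 and 4639 ± 198 TPM in the same order of groups) were lower in sum. Adh was higher in sum, at 551 ± 34.7 TPM in Cdo1KKO/Sed and 397 ± 62.7 TPM in WT/Sed, with Adh1, which did not pass the test, making up most of the sum in both groups. These sums were not tested, and TPM places the median gene higher than TMM does.

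Aldh1a2 and Aldh1a3, which make retinoic acid, were low and rose, while Aldh1a1, which can also do so, did not pass the test. Retinol is first oxidised to retinaldehyde, a step that Adh1 and Adh7 can catalyse, and Aldh1a1, Aldh1a2 and Aldh1a3 then oxidise retinaldehyde to retinoic acid. Aldh1a2 (chromosome 9, 71215789 to 71296243) had 3.43, 2.74 and 3.58 CPM in the Cdo1KKO/Sed libraries, against 1.13, 1.57 and 1.02 CPM in the WT/Sed libraries (log2 fold change 1.41 ± 0.24, adjusted p = 7.92e-04). All 3 Cdo1KKO/Sed libraries were above all WT/Sed libraries. Aldh1a3 (chromosome 7, 66390890 to 66427517) had 0.704, 0.729 and 1.22 CPM in the Cdo1KKO/Sed libraries, against 0.154, 0.0750 and 0.292 CPM in the WT/Sed libraries (log2 fold change 2.27 ± 0.50, adjusted p = 0.00424). It rests on 108 counts over the Cdo1KKO/Sed libraries and 20 over the WT/Sed libraries, and its mean was under 1 CPM. Between the groups, fibroblast and pericyte markers, among them Pdgfra, moved as these 2 genes did. Their summed level was 65.2 to 77.0 CPM in Cdo1KKO/Sed and 24.3 to 35.7 CPM in WT/Sed, and none of the 6 was at 0. Within WT/Sed, Aldh1a2 had the order of this sum over the libraries. Aldh1a3 was instead highest (0.292 CPM) in replicate 3, where the sum was lowest (24.3 CPM). Most macrophage and neutrophil markers rose between the groups too. The part of any of these markers in the 2 rises was not tested.

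Aldh1a1 and Aldh1a7 are neighbours on chromosome 19 and varied together. Aldh1a7 shares 7.49% of its distinct 50-base transcript stretches with Aldh1a1, and Aldh1a1 shares 3.06% with Aldh1a7. How reads from such stretches were counted is not stated. Aldh1a1, the main cytosolic retinaldehyde dehydrogenase, had 9.13, 8.70 and 10.7 CPM in the Cdo1KKO/Sed libraries, against 20.7, 8.25 and 32.2 CPM in the WT/Sed libraries. WT/Sed replicate 2 was below all 3 Cdo1KKO/Sed libraries and the other WT/Sed libraries were above all of them, so the groups overlapped (log2 fold change -1.11 ± 0.52, adjusted p = 0.173). Without WT/Sed replicate 2 the log2 fold change was -1.47 with an adjusted p of 7.68e-04. Aldh1a7, a rodent copy of Aldh1a1 not known to act on retinaldehyde, had 14.3, 12.4 and 15.2 CPM in the Cdo1KKO/Sed libraries, against 29.2, 17.6 and 38.7 CPM in the WT/Sed libraries (log2 fold change -1.04 ± 0.30, adjusted p = 0.0430). WT/Sed replicate 2 was again the lowest of its group, though still above every Cdo1KKO/Sed library. Aldh1a7 no longer passed without WT/Sed replicate 1 (adjusted p = 0.0932) or any 1 Cdo1KKO/Sed library (0.0876 to 0.121), with no filter (0.137), with library size alone (0.0654) or with TPM (0.0605 and 0.0653 for pseudocounts 1 and 0.1).

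The WT/Sed libraries that were high for these genes were low for endothelial markers and for several other marker lists. Aldh1a1 had 20.7, 8.25 and 32.2 CPM in WT/Sed replicates 1 to 3, while the summed endothelial markers were at 104, 172 and 43.8 CPM and the podocyte markers at 244, 347 and 176 CPM. In Cdo1KKO/Sed the endothelial sum was 172 to 179.5 CPM and the podocyte sum 213 to 235 CPM. In WT/Sed replicates 1 to 3 the distal convoluted tubule sum was 1138, 1268 and 1021 CPM, in the endothelial order. The fibroblast and pericyte sum, at 31.2, 35.7 and 24.3 CPM, had that order too. The thick ascending limb sum, at 2718, 2234 and 3044 CPM, had the order of Aldh1a1. Endothelial and podocyte markers are therefore not singled out. The part of any of these markers in the Aldh1a1 and Aldh1a7 values was not tested. The ratio of Aldh1a1 to Aldh1a7 in TPM was 0.267, 0.294 and 0.296 in the Cdo1KKO/Sed libraries, against 0.296, 0.196 and 0.348 in the WT/Sed libraries, and the ranges of the groups overlapped.

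The retinol-oxidising alcohol dehydrogenases did not pass the test. They belong to a cluster that holds all 6 Adh genes on chromosome 3 (138217760 to 138455499). Adh1 (chromosome 3, 138260991 to 138290698) had 394, 406 and 349 CPM in the Cdo1KKO/Sed libraries, against 306, 364 and 244 CPM in the WT/Sed libraries (log2 fold change 0.33 ± 0.14, adjusted p = 0.123). WT/Sed replicate 2 lay above Cdo1KKO/Sed replicate 3, and the other WT/Sed libraries lay below all of Cdo1KKO/Sed. Without WT/Sed replicate 2 the log2 fold change was 0.48 with an adjusted p of 0.0158. Adh1 also passed with DESeq2 (adjusted p = 0.0152), limma-voom (0.0407), no filter (0.0378), library size alone (0.0379) and TPM (0.00673 and 0.00779). Adh7, the class IV enzyme that prefers retinol, had 6.65, 6.92 and 6.17 CPM in the Cdo1KKO/Sed libraries, against 4.34, 6.90 and 4.57 CPM in the WT/Sed libraries (log2 fold change 0.33 ± 0.18, adjusted p = 0.174). It passed without WT/Sed replicate 2 (0.56, adjusted p = 0.00545), with library size alone (0.0458) and with TPM (0.0274 and 0.0292). Its exons overlap the antisense gene 0610031O16Rik, which had more counts (1471 against 1316 over the 6 libraries), and the strand setting of the counting is not stated.

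Of 28 other genes of retinoid handling, 22 were tested, 7 fell and 3 rose, beside 18.5% and 18.9% over all tested genes; their median log2 fold change was -0.05. With TPM 4 fell and 8 rose, and with library size alone 5 fell and 7 rose. Over all tested genes 7.25% fell and 39.5% rose with TPM plus 1, and 9.80% fell and 32.1% rose with library size alone. Transthyretin (Ttr), which carries retinol-binding protein, averaged 60.3 ± 2.50 CPM in the Cdo1KKO/Sed libraries and 121 ± 6.06 CPM in the WT/Sed libraries. Dhrs4 and Dhrs3, which reduce retinaldehyde, had log2 fold changes of -0.77 ± 0.05 and -0.70 ± 0.08, and the retinol dehydrogenase Rdh16 -0.91 ± 0.10. The 3 that rose were Cyp26a1, which degrades retinoic acid, Rarb, a retinoic acid receptor, and the reductase Rdh11. Cyp26a1 had 1.16, 0.604 and 0.719 CPM in the Cdo1KKO/Sed libraries, against 0.154, 0.375 and 0.0973 CPM in the WT/Sed libraries (log2 fold change 2.06 ± 0.53, adjusted p = 0.0107), and Rarb had 1.68, 1.91 and 2.64 CPM in the Cdo1KKO/Sed libraries, against 0.720, 1.42 and 0.851 CPM in the WT/Sed libraries (log2 fold change 1.09 ± 0.31, adjusted p = 0.0175). Without WT/Sed replicate 1 all 3 calls ended (adjusted p 0.0561 to 0.0863). Without Cdo1KKO/Sed replicate 1 the calls for Cyp26a1 (0.0629) and Rdh11 (0.0725) ended, and without Cdo1KKO/Sed replicate 3 those for Rarb (0.106) and Rdh11 (0.0669). Cyp26b1 did not pass the test (log2 fold change 1.11, adjusted p = 0.0675). It passed with DESeq2 (0.00284), limma-voom (0.0329), no filter (1.97e-04), library size alone (0.0424), TPM (0.0261 and 0.0299) and without Cdo1KKO/Sed replicate 2 (0.0254). In the remaining settings it did not pass.

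**Figure D3:**
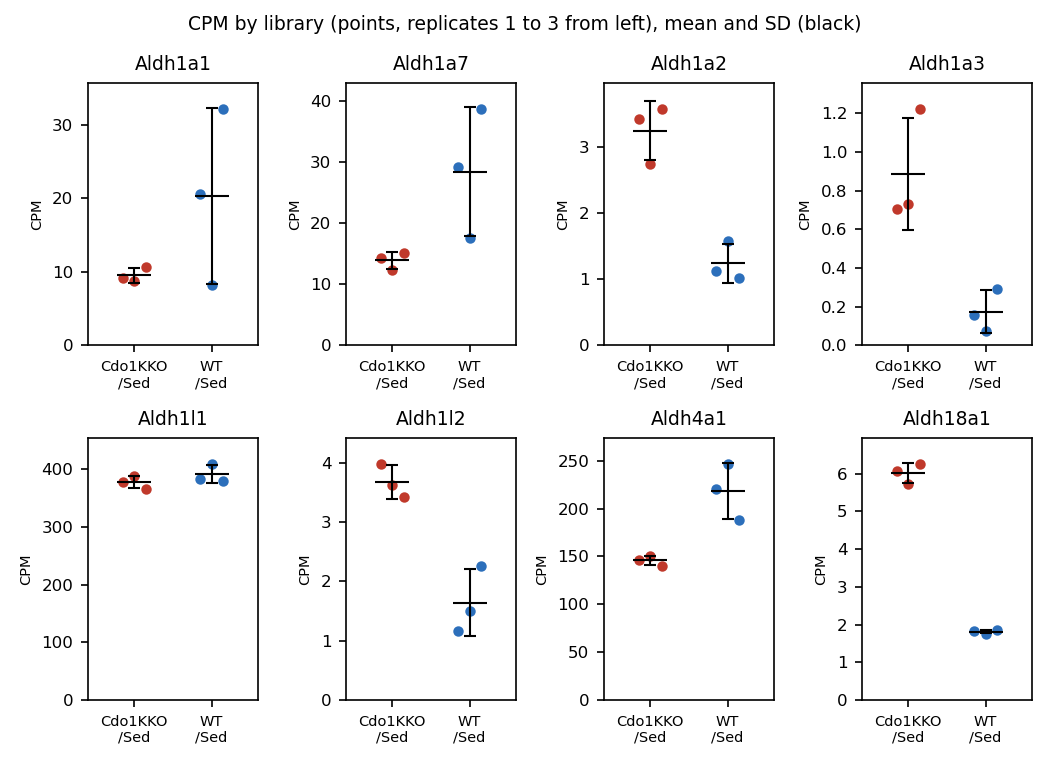
CPM of 8 Aldh genes in each library (points) with mean and SD (black), Cdo1KKO/Sed left and WT/Sed right, each axis from 0. Aldh1a2, Aldh1a3, Aldh1l2 and Aldh18a1 are higher in every Cdo1KKO/Sed library, while Aldh1a1 spreads from 8.25 to 32.2 CPM within WT/Sed.

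ALDHs that break down amino acids fell, and the proline-making Aldh18a1 and the mitochondrial folate enzyme Aldh1l2 rose. Aldh4a1 oxidises pyrroline-5-carboxylate, the last step of proline breakdown in mitochondria, and had 147, 150.5 and 140.3 CPM in the Cdo1KKO/Sed libraries, against 220.3, 247 and 188 CPM in the WT/Sed libraries (log2 fold change -0.58 ± 0.09, adjusted p = 5.62e-04). Aldh18a1 runs the reverse direction, making pyrroline-5-carboxylate from glutamate for proline synthesis, and had 6.06, 5.73 and 6.26 CPM in the Cdo1KKO/Sed libraries, against 1.82, 1.76 and 1.85 CPM in the WT/Sed libraries (log2 fold change 1.73 ± 0.16, adjusted p = 9.59e-06). The groups were apart in both genes. The ratio of Aldh4a1 to Aldh18a1 in TPM was 20.1, 21.8 and 18.6 in the Cdo1KKO/Sed libraries, against 100.2, 116 and 84.6 in the WT/Sed libraries. Gm21969 shares 32.5% of the exonic bases of Aldh4a1 but had 18 counts over the 6 libraries against 40107 for Aldh4a1.

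Aldh7a1 acts on aminoadipic semialdehyde of lysine breakdown and had 259.5, 273 and 264 CPM in the Cdo1KKO/Sed libraries, against 389, 369 and 405 CPM in the WT/Sed libraries (log2 fold change -0.55 ± 0.05, adjusted p = 1.45e-05). Aldh8a1, which acts on aminomuconic semialdehyde of the kynurenine pathway, had 344, 361 and 337 CPM in the Cdo1KKO/Sed libraries, against 483, 459 and 489.5 CPM in the WT/Sed libraries (log2 fold change -0.46 ± 0.05, adjusted p = 4.14e-05). Aldh5a1 oxidises succinic semialdehyde, the product of GABA breakdown, and had 63.8, 69.5 and 67.3 CPM in the Cdo1KKO/Sed libraries, against 81.9, 75.6 and 85.6 CPM in the WT/Sed libraries (log2 fold change -0.28 ± 0.06, adjusted p = 0.00449). The 3 genes were lower in every Cdo1KKO/Sed library. Phax, on the other strand, overlaps 5.79% of the exonic bases of Aldh7a1 and had 6979 counts over the 6 libraries against 73058. The Aldh5a1 call ended with library size alone (adjusted p = 0.161) and with TPM (0.803 and 0.804).

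The 2 formyl-tetrahydrofolate dehydrogenases differed in level and in call. Cytosolic Aldh1l1 had 378, 387 and 366 CPM in the Cdo1KKO/Sed libraries, against 384, 409 and 380.1 CPM in the WT/Sed libraries (log2 fold change -0.05 ± 0.05, adjusted p = 0.474), and the groups overlapped. With library size alone its log2 fold change was 0.12 (adjusted p = 0.0837), and with TPM it was 0.20, with adjusted p values of 0.00571 and 0.00570 for pseudocounts 1 and 0.1. Mitochondrial Aldh1l2 had 3.98, 3.62 and 3.42 CPM in the Cdo1KKO/Sed libraries, against 1.16, 1.50 and 2.26 CPM in the WT/Sed libraries (log2 fold change 1.15 ± 0.25, adjusted p = 0.00376), without overlap. The TPM ratio of Aldh1l1 to Aldh1l2 was 158, 178 and 178 in the Cdo1KKO/Sed libraries, against 551, 453 and 279 in the WT/Sed libraries. D10Wsu102e, transcribed from the other strand, overlaps 14.1% of the exonic bases of Aldh1l2 and had 9599 counts over the 6 libraries against 609 for Aldh1l2. It stood at 45.3 ± 2.05 CPM in the Cdo1KKO/Sed libraries and 39.4 ± 2.62 CPM in the WT/Sed libraries (log2 fold change 0.20 ± 0.07, adjusted p = 0.0399), and its part in the Aldh1l2 count was not tested.

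Among 25 partner genes of these amino acid and folate pathways, all tested, 17 fell and 2 rose (median log2 fold change -0.31), beside 18.5% lower and 18.9% higher over all tested genes. At a mean of 100 CPM or more, 48.2% of tested genes fell and 17.1% rose, and below it 15.0% fell and 19.1% rose. The list was not split by this level. The 2 that rose, Mthfd1l and Mthfd2, act in mitochondrial folate metabolism, as Aldh1l2 does. Mthfd1l had 8.64, 9.05 and 9.13 CPM in the Cdo1KKO/Sed libraries, against 2.08, 1.20 and 1.87 CPM in the WT/Sed libraries (log2 fold change 2.35 ± 0.19, adjusted p = 3.46e-06). Mthfd2 averaged 8.39 ± 1.09 CPM in the Cdo1KKO/Sed libraries and 3.05 ± 0.306 CPM in the WT/Sed libraries (log2 fold change 1.45 ± 0.15, adjusted p = 2.79e-05). Other mitochondrial enzymes of folate and glycine metabolism on the list fell, Shmt2 (log2 fold change -0.40 ± 0.12, adjusted p = 0.0351), Amt (-0.24 ± 0.07), Gldc (-0.62 ± 0.19) and Gcsh (-0.42 ± 0.05), and Mthfd2l did not pass the test (0.09 ± 0.13, adjusted p = 0.618). The calls for Shmt2, Amt and Gldc ended with library size alone (adjusted p = 0.175, 0.443 and 0.104), with TPM and without WT/Sed replicate 1 (0.0860, 0.0945 and 0.0993) or Cdo1KKO/Sed replicates 2 (0.0572, 0.0653 and 0.108) or 3 (0.104, 0.0918 and 0.116). Those for Shmt2 and Gldc also ended without Cdo1KKO/Sed replicate 1 (0.0968 and 0.105), and that for Gldc without WT/Sed replicate 3 (0.0777). With TPM the log2 fold change of Amt was 0.01. The proline oxidases Prodh and Prodh2, upstream of Aldh4a1, fell (-1.04 ± 0.06 and -0.94 ± 0.07). Pycr1, which finishes proline synthesis after Aldh18a1, had a log2 fold change of 0.23 ± 0.31 and did not pass the test (adjusted p = 0.591). The related reductase Pycrl fell (log2 fold change -0.34 ± 0.09, adjusted p = 0.00934), a call that ended with library size alone (adjusted p = 0.129), with TPM (0.403 and 0.402) and without Cdo1KKO/Sed replicate 3 (0.0515). With library size alone 9 of the 25 fell, without Cdo1KKO/Sed replicate 3, 11 fell, and with TPM 7 fell and 4 rose. Over all tested genes 9.80% fell with library size alone and 13.6% without Cdo1KKO/Sed replicate 3. With TPM plus 1, 7.25% of all tested genes fell and 39.5% rose.

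Aldh2, Aldh3a2, Adh5 and Aldh16a1 fell, though the calls for Aldh2 and Adh5 depended on the scaling. Mitochondrial Aldh2, the acetaldehyde dehydrogenase, had 528, 554 and 523 CPM in the Cdo1KKO/Sed libraries, against 633, 672 and 598 CPM in the WT/Sed libraries (log2 fold change -0.25 ± 0.06, adjusted p = 0.00499). With library size alone the Aldh2 call ended (adjusted p = 0.285), and with TPM its log2 fold change was 0.01 (adjusted p = 0.895). Aldh3a2, the fatty aldehyde dehydrogenase of the endoplasmic reticulum, had 199, 208 and 207 CPM in the Cdo1KKO/Sed libraries, against 303, 266 and 343 CPM in the WT/Sed libraries (log2 fold change -0.57 ± 0.08, adjusted p = 2.97e-04). Adh5, which oxidises the glutathione adduct of formaldehyde and reduces S-nitrosoglutathione, had 162, 165 and 157 CPM in the Cdo1KKO/Sed libraries, against 192, 218 and 188 CPM in the WT/Sed libraries (log2 fold change -0.31 ± 0.06, adjusted p = 0.00296). Its call ended with library size alone (0.107) and with TPM (0.510 and 0.509). Aldh16a1, a member whose mammalian form lacks the usual catalytic cysteine, had 33.0, 34.6 and 32.5 CPM in the Cdo1KKO/Sed libraries, against 54.1, 55.5 and 49.5 CPM in the WT/Sed libraries (log2 fold change -0.67 ± 0.06, adjusted p = 1.50e-05).

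The Aldh3b genes, which oxidise aldehydes derived from membrane lipids, lie together on chromosome 19 (3913491 to 3981646) and all 3 fell. Aldh3b3 had 2.33, 2.16 and 2.09 CPM in the Cdo1KKO/Sed libraries, against 6.12, 7.65 and 5.11 CPM in the WT/Sed libraries (log2 fold change -1.51 ± 0.19, adjusted p = 8.67e-05), the lowest fold change of all tested members. Aldh3b1 had 8.51, 8.22 and 8.46 CPM in the Cdo1KKO/Sed libraries, against 12.7, 10.6 and 11.1 CPM in the WT/Sed libraries (log2 fold change -0.45 ± 0.11, adjusted p = 0.00669). Its call ended with library size alone (adjusted p = 0.0554) and with TPM (0.102 for both pseudocounts). Aldh3b2, at 0.269 ± 0.0292 CPM in the Cdo1KKO/Sed libraries and 0.702 ± 0.281 CPM in the WT/Sed libraries, rests on 32 counts over the Cdo1KKO/Sed libraries and 71 over the WT/Sed libraries (log2 fold change -1.34 ± 0.44, adjusted p = 0.0349). It no longer passed without WT/Sed replicate 2 (adjusted p = 0.138) or any 1 Cdo1KKO/Sed library (0.0784 to 0.105), with library size alone (0.0544) or with limma-voom, which gave 0.05002. Aldh3b2 shares 23.5% of its distinct 50-base stretches with Aldh3b3, so the split of counts between these 2 genes is uncertain. Mitochondrial Aldh1b1, related to Aldh2, had 1.71, 1.36 and 2.49 CPM in the Cdo1KKO/Sed libraries, against 1.75, 0.825 and 1.70 CPM in the WT/Sed libraries, with overlap (log2 fold change 0.36 ± 0.33, adjusted p = 0.425).

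Of 24 other genes around the oxidation and reduction of carbonyls and alcohols, 23 were tested, 15 fell and 4 rose (median log2 fold change -0.39), beside 18.5% lower and 18.9% higher over all tested genes. At a mean of 100 CPM or more, 48.2% of tested genes fell and 17.1% rose, and below it 15.0% fell and 19.1% rose. The list was not split by this level. Of the list, 10 fell and 5 rose with library size alone, and with TPM 9 fell and 6 (plus 1) or 5 (plus 0.1) rose. Over all tested genes 9.80% fell and 32.1% rose with library size alone, and 7.25% fell and 39.5% rose with TPM plus 1. Xdh, xanthine oxidoreductase, had 156, 141 and 152 CPM in the Cdo1KKO/Sed libraries, against 20.2, 22.3 and 17.4 CPM in the WT/Sed libraries (log2 fold change 2.91 ± 0.09, adjusted p = 3.33e-09). Sorbitol dehydrogenase (Sord) averaged 1048 ± 37.8 CPM in the Cdo1KKO/Sed libraries and 1964 ± 114 CPM in the WT/Sed libraries (log2 fold change -0.91 ± 0.05, adjusted p = 4.68e-07). The crystallin-like dehydrogenase Cryl1 fell (-0.56 ± 0.05), as did Haao, a dioxygenase of the kynurenine pathway (-0.72 ± 0.07). The others that rose were the carbonyl reductase Cbr3 (1.76 ± 0.38), the aldehyde oxidase Aox1 (1.53 ± 0.46) and Hsd11b1, which regenerates active glucocorticoid (0.43 ± 0.14). The Aox1 call ended without any 1 Cdo1KKO/Sed library (adjusted p 0.0582 to 0.0879). The Hsd11b1 call ended with RLE (0.0512) and upper-quartile factors (0.0698), without WT/Sed replicates 1 or 3 (0.137 and 0.0624) and without any 1 Cdo1KKO/Sed library (0.0791 to 0.130).

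Akr1a1, Akr7a5, Akr1d1 and Akr1e1 fell. Akr1a1 (chromosome 4, 116636510 to 116651680) had 1168, 1199.5 and 1126 CPM in the Cdo1KKO/Sed libraries, against 1647, 1689 and 1555 CPM in the WT/Sed libraries (log2 fold change -0.49 ± 0.05, adjusted p = 2.32e-05). Akr7a5, which reduces succinic semialdehyde and aflatoxin dialdehyde, had 117, 134 and 117 CPM in the Cdo1KKO/Sed libraries, against 207, 211 and 188 CPM in the WT/Sed libraries (log2 fold change -0.72 ± 0.07, adjusted p = 1.30e-05). Akr1d1, the steroid 5-beta reductase of bile acid synthesis, had 37.0, 36.1 and 37.6 CPM in the Cdo1KKO/Sed libraries, against 51.7, 57.8 and 52.0 CPM in the WT/Sed libraries (log2 fold change -0.54 ± 0.06, adjusted p = 5.97e-05). Akr1e1, which reduces anhydrofructose, had 79.5, 81.4 and 78.2 CPM in the Cdo1KKO/Sed libraries, against 103, 103 and 90.8 CPM in the WT/Sed libraries (log2 fold change -0.31 ± 0.06, adjusted p = 0.00198). Every Cdo1KKO/Sed library was below every WT/Sed library in these 4 genes. The Akr1e1 call ended with library size alone (adjusted p = 0.0866) and with TPM (0.466 and 0.464).

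The 3 Akr1b genes other than Akr1b3 lie side by side on chromosome 6 (34354119 to 34423142) and differed in call. Akr1b8 rose, Akr1b10 fell and Akr1b7 did not pass the test. Akr1b8, an inducible aldose reductase-like enzyme, had 10.0, 8.95 and 8.79 CPM in the Cdo1KKO/Sed libraries, against 3.29, 1.61 and 3.31 CPM in the WT/Sed libraries (log2 fold change 1.73 ± 0.22, adjusted p = 1.65e-04). Akr1b10 had 30.2, 34.5 and 30.6 CPM in the Cdo1KKO/Sed libraries, against 43.2, 44.2 and 44.0 CPM in the WT/Sed libraries (log2 fold change -0.46 ± 0.07, adjusted p = 3.02e-04). Akr1b7, known from adrenal cortex and vas deferens, had 1.16, 1.28 and 0.763 CPM in the Cdo1KKO/Sed libraries, against 0.668, 1.99 and 0.754 CPM in the WT/Sed libraries, and WT/Sed replicate 2 was the highest of all 6 libraries (log2 fold change -0.05 ± 0.43, adjusted p = 0.943). Without WT/Sed replicate 2 its log2 fold change was 0.58 (adjusted p = 0.231). The approximate SE of 0.43 for Akr1b7 is too large to tell its change from the -0.46 of Akr1b10. Of 7 adrenal cortex markers, Cyp11a1, Cyp11b2 and Nr5a1 were at 0 in all libraries. The list summed to 4.78 to 5.05 CPM in Cdo1KKO/Sed and 4.11 to 5.74 CPM in WT/Sed, nearly all of it Star.

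The Akr1c cluster of chromosome 13 (4049011 to 4609174, with Akr1e1 at its end) held members that rose and members that fell. These enzymes act on ketones and alcohols of steroids and other small molecules. Akr1c21 had 1049.7, 1054 and 1031 CPM in the Cdo1KKO/Sed libraries, against 1639.6, 1834 and 1514 CPM in the WT/Sed libraries (log2 fold change -0.67 ± 0.06, adjusted p = 1.55e-05), and Akr1c14, a 3-alpha hydroxysteroid dehydrogenase, had 340.0, 351 and 320.0 CPM in the Cdo1KKO/Sed libraries, against 454, 399 and 514 CPM in the WT/Sed libraries (log2 fold change -0.44 ± 0.08, adjusted p = 0.00279). The Akr1c14 call ended with TPM (adjusted p = 0.165 and 0.167). Akr1c18, which inactivates progesterone as a 20-alpha hydroxysteroid dehydrogenase, had 11.6, 11.0 and 14.3 CPM in the Cdo1KKO/Sed libraries, against 22.6, 12.5 and 28.6 CPM in the WT/Sed libraries (log2 fold change -0.80 ± 0.31, adjusted p = 0.105). WT/Sed replicate 2 overlapped Cdo1KKO/Sed in this gene. Without it the log2 fold change was -1.05 (adjusted p = 7.09e-06), and limma-voom on all libraries gave an adjusted p of 0.0356.

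Of the genes between these, 3 rose. Akr1c19 had 36.8, 35.6 and 35.1 CPM in the Cdo1KKO/Sed libraries, against 20.8, 19.7 and 23.0 CPM in the WT/Sed libraries (log2 fold change 0.76 ± 0.07, adjusted p = 1.55e-05). Akr1c13 had 14.3, 11.9 and 12.2 CPM in the Cdo1KKO/Sed libraries, against 8.81, 8.51 and 10.7 CPM in the WT/Sed libraries (log2 fold change 0.45 ± 0.12, adjusted p = 0.0138), and Akr1c12 had 3.22, 3.40 and 3.05 CPM in the Cdo1KKO/Sed libraries, against 1.90, 2.40 and 2.16 CPM in the WT/Sed libraries (log2 fold change 0.58 ± 0.19, adjusted p = 0.0300). The groups were apart in all of these. Akr1c12 no longer passed without WT/Sed replicate 1 (adjusted p = 0.112) or any 1 Cdo1KKO/Sed library (0.0696 to 0.101), and Akr1c13 did not pass without WT/Sed replicate 1 (0.0677) or Cdo1KKO/Sed replicate 1 (0.0772). Akr1c12 shares 28.6% of its distinct 50-base transcript stretches with Akr1c13, and Akr1c13 shares 24.2% with Akr1c12. How reads were split between these 2 genes, whose promoters are printed above, is uncertain. Akr1c21 shares 0 such stretches with any other annotated gene.

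**Figure D4:**
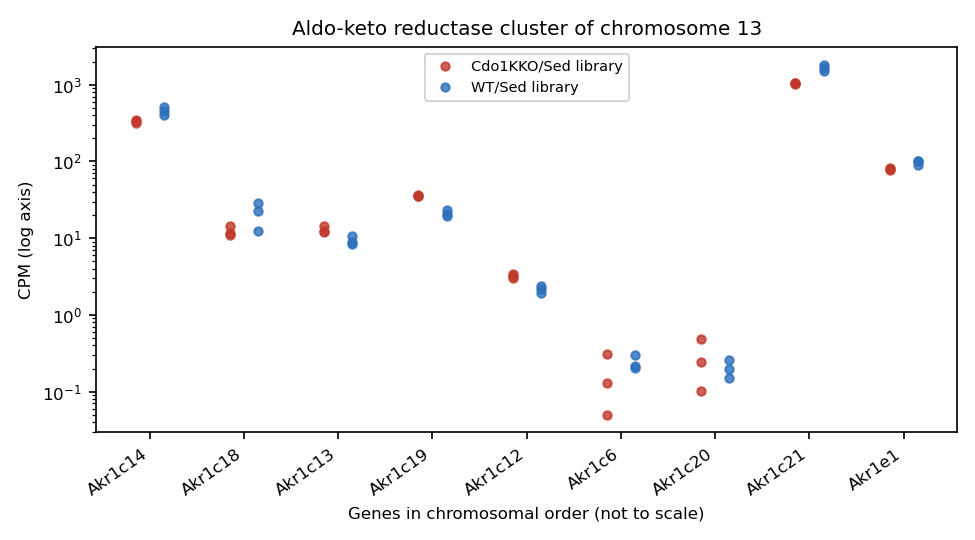
CPM on a log axis of the 9 genes of the chromosome 13 cluster in chromosomal order, Cdo1KKO/Sed left of WT/Sed for each gene, 1 point per library. Akr1c14, Akr1c21 and Akr1e1 are lower in every Cdo1KKO/Sed library, and Akr1c13, Akr1c19 and Akr1c12 between them are higher in every one.

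Some aldo-keto reductases and ALDHs are targets of NRF2, the factor that drives genes of antioxidant defence. Of 28 such targets outside the families, all tested, 19 rose and 2 fell (median log2 fold change 0.39). Pgd and G6pdx, which make NADPH, had log2 fold changes of 0.97 ± 0.05 and 0.87 ± 0.06, ferritin heavy chain (Fth1) 0.67 ± 0.04 and the cystine importer Slc7a11 4.79 ± 0.33. The 2 that fell were the malic enzyme Me1 (-0.42 ± 0.05) and the glutathione transferase Gstm1 (-0.31 ± 0.05), the call for Gstm1 ending with TPM (adjusted p = 0.240 and 0.235). The list was written from general knowledge with earlier results of these data known, and its counts stand beside 18.9% higher and 18.5% lower over all tested genes.

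**Figure D5:**
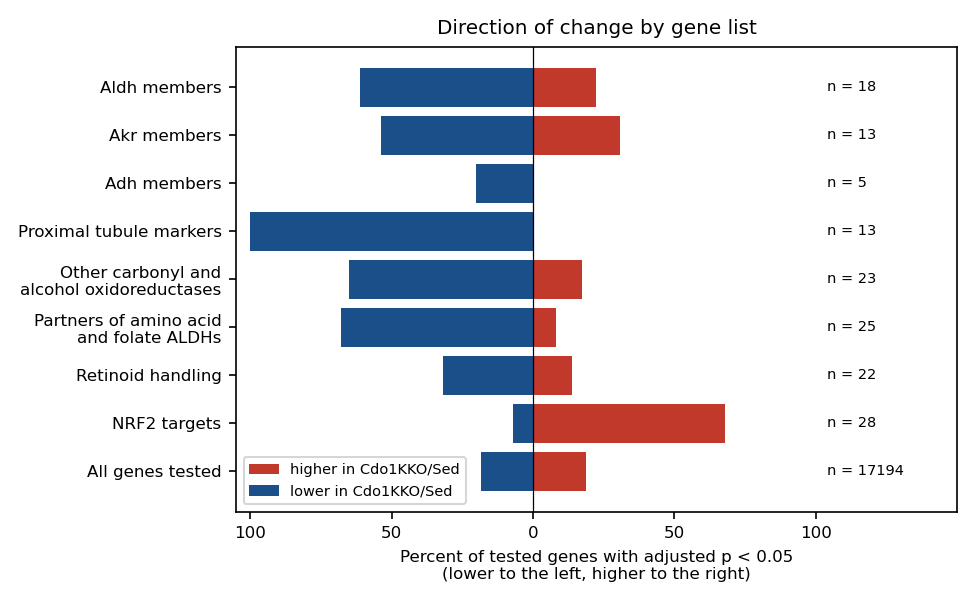
Percent of tested genes that fell (left) and rose (right) in Cdo1KKO/Sed against WT/Sed, for the 3 families, the proximal tubule markers, the 4 other gene lists and all tested genes, with the number tested at the right. The Aldh and Akr genes have 61.1% and 53.8% lower, the proximal tubule markers 100%, and the NRF2 targets 67.9% higher. Not drawn are the shares by level, 48.2% lower among all tested genes at 100 CPM or more and 15.0% below it.

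The remaining members had few counts. Adh6a had 1.22, 0.956 and 0.937 CPM in the Cdo1KKO/Sed libraries, against 0.617, 0.525 and 0.559 CPM in the WT/Sed libraries, without overlap, and just missed the threshold (log2 fold change 0.86 ± 0.32, adjusted p = 0.0533). It passed with library size alone (adjusted p = 0.0230) and with TPM (0.00603 and 0.00888). Adh6b had 1.10, 1.06 and 0.676 CPM in the Cdo1KKO/Sed libraries, against 0.797, 1.27 and 0.730 CPM in the WT/Sed libraries (log2 fold change 0.03 ± 0.35, adjusted p = 0.958), with overlap. The 5 members that did not pass the filter on low counts were Adh4, Akr1c6, Akr1c20, Akr1cl and Aldh3a1. Adh4 had 4 counts over the Cdo1KKO/Sed libraries and 0 over the WT/Sed libraries, Akr1c6 had 18 in Cdo1KKO/Sed and 25 in WT/Sed, Akr1c20 34 and 22, and Aldh3a1, the corneal enzyme, 10 and 5 in the same order of groups. Akr1cl had 0 counts in all 6 libraries, which allows up to 0.0254 CPM over the Cdo1KKO/Sed libraries and 0.0281 CPM over the WT/Sed libraries. Differences in these 5 genes were not detectable at this depth.

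The members varied less within Cdo1KKO/Sed than within WT/Sed. The coefficient of variation of the CPM had a median over the 36 tested members of 5.41% in Cdo1KKO/Sed and 12.0% in WT/Sed, and it was larger in WT/Sed for 31 of them. The spread was not compared with that of all tested genes, so it is not shown to be particular to these families. WT/Sed replicate 2 was the lowest of its group in 16 members and the highest in 18. This library held the fewest counts, 28145261 against 41261814 and 43872779 in WT/Sed replicates 1 and 3. For Aldh1a1 it stood at 31.2% of the mean of the other WT/Sed libraries, for Akr1c18 at 49.0% and for Akr1b8 at 48.9%. For Akr1b7 it stood at 279% and for Adh1 at 132%.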

How the data were processed

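Poly(A) RNA of mouse kidney was sequenced from 6 libraries, 3 a group, made with the VAHTS Universal V6 kit per the labels' protocols. The deposited gene counts are raw, and the TPM of the deposited second table sum to the same total in each library. The submitters' processing notes name fastp 0.23.4 and the builds GRCm38 and mm10; the aligner, counter and its strand setting are not stated in them. Positions came from GENCODE M21 (GRCm38), which holds all 41 members. Tests on the counts used edgeR 4.0.16 under R 4.3.3 (filterByExpr, TMM, robust quasi-likelihood F test, genotype as the only term), with Benjamini-Hochberg adjustment over all 17194 tested genes at a threshold of 0.05. The procedure was tested on simulated data. The SE is the absolute log2 fold change divided by the square root of F. Alternatives used DESeq2 1.42.0, limma 3.58.1, other scalings, filters, TPM (pseudocounts 1 and 0.1), left-out libraries and a replicate block. Limits for 0 counts use 3 counts and cover counting error only, as no molecular identifiers are stated. Shared 50-base stretches were counted over the GENCODE transcripts. The members and gene lists were chosen with earlier results of these data known. Every member is reported, with library values for those that passed the test at a mean of at least 1 CPM; of each list up to 4 genes with the smallest p are named, with those that complete a count of 5 or fewer; 1 gene that this rule names is not reported here. Chosen for naming with their values already known were the untested and uncalled members given by library, Pdgfra, Pycr1, Pycrl, Mthfd2l, Shmt2, Amt, Gldc, Gcsh, Cyp26b1, Gclm, Gsta1, Gstm2, the named marker genes and the overlapping genes. Figures were drawn with matplotlib 3.10.9. Residual variation covers only the spread between these libraries.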

Additional observations from a re-analysis of the deposited data

How the results depend on the processing

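16 other settings were run on the members. The count of members that rose was 8 and ran from 6 to 12, and the count that fell was 19 and ran from 12 to 20. Over the same settings 12.2% to 39.5% of all tested genes were higher and 7.12% to 21.6% lower. Fewer fell, 12 each, with library size alone and with TPM plus 1 or plus 0.1; these settings shift the median of all genes. Leaving out 1 library gave 6 to 10 higher and 17 to 20 lower. In those fits 13.2% to 21.1% of all tested genes were higher and 13.2% to 20.0% lower. The log2 fold change of Cdo1 kept its direction and call, between -0.80 and -0.70 without 1 library and between -0.80 and -0.49 over all 16 settings. The direction turned, without a call, for Adh6b (-0.07 and -0.13 without WT/Sed replicates 1 and 3, -0.09 and -0.07 without Cdo1KKO/Sed replicates 1 and 2), and for Akr1b7, which gave 0.12 with library size alone, 0.14 with limma-voom, 0.18 and 0.29 with TPM plus 1 and plus 0.1, 0.58 and 0.14 without WT/Sed replicate 2 and Cdo1KKO/Sed replicate 3, and 0.0301 with the replicate block. Aldh1l1 turned to 0.12 with library size alone and 0.20 with TPM, passing the test with TPM, and Aldh2 to 0.0083 with TPM. Over the libraries left out in turn Adh6b ran from -0.13 to 0.30 and Akr1b7 from -0.33 to 0.58. The causes were not tested. Replicate numbers are shared between the groups, and no pairing is stated. Deviations of same-numbered libraries correlated at -0.0022, 0.010 and 0.013. With 3 libraries a group, these values cannot tell whether same-numbered libraries shared a batch. With the replicate block, 8 members rose and 19 fell; Adh1 (adjusted p = 0.00421) and Akr1c18 (0.0156) gained a call, and Akr1c12 (0.0553) and Aldh3b2 (0.0547) lost it. Among the other lists, retinoid genes that rose numbered 7 with library size alone, 0 without WT/Sed replicate 1 and 1 without Cdo1KKO/Sed replicates 1 or 3. Over all tested genes 32.1%, 14.0%, 13.6% and 13.2% rose in these settings, in that order. The carbonyl and alcohol genes that rose numbered 2 without any 1 Cdo1KKO/Sed library, where 13.2% to 14.1% of all tested genes rose. TPM, tried on these lists after seeing the data, gave 8 retinoid genes higher and 4 lower, 9 carbonyl and alcohol genes lower, 4 partner genes higher and 7 lower, and 1 NRF2 target lower. With TPM plus 1, 39.5% of all tested genes were higher and 7.25% lower. With promoters of 250 bases before the start only, 3 members held the antioxidant response element core. Depth limits the 5 untested members and Aldh1a3 and Aldh3b2.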
